A study of Rattus norvegicus with 138 samples.

Results

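The genes described here are a list of 45 pan-leukocyte and myeloid signaling genes, taken from the table by symbol. Of these, 42 were found among the 16181 complete entries of the expression table, and all 42 were among the 11328 genes that reached a mean of 1 TPM (a transcript level scaled for transcript length and for the library total) in some group. Itgax, Dock2 and Pik3cg were not analysed here. The muscle was the tibialis anterior (TA) of male Lewis rats with volumetric muscle loss (VML), made by a surgical punch through the middle of the left TA. RNA of the whole muscle was sequenced at 3, 7, 14 and 28 days post injury (DPI), either without repair or after minced muscle graft repair, and some rats of both arms were labelled as running. The contralateral TA of the same rats was left uninjured. Control muscle was the left and right TA of 2 rats (4 muscles), labelled sham and described as unoperated in the study's text. The control rats carry numbers of one series and the operated rats those of another. The series and the injury therefore cannot be told apart in a comparison with control muscle. Contralateral muscle shares the series of the injured muscle.

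Libraries with fewer than 7000 symbols above 1 TPM were left out, which removed 13 of 138 and left between 7866 and 10948 symbols above 1 TPM in each library kept. Libraries of one muscle were averaged. Without running, the non-repaired injured muscles numbered 3, 8, 4 and 4 at 3, 7, 14 and 28 DPI, and the graft-repaired injured muscles 7, 8, 4 and 4. Contralateral muscles of these rats numbered 2, 4, 2 and 2 without repair and 2, 6, 2 and 2 with graft. The TPM values carry no read depth, so no counting error can be attached to them. The samples hold whole muscle and not sorted cells, and fewer cells of a type cannot be told apart from less RNA per cell. Myofiber RNA was present in every group. The summed level of 8 myofiber markers was 198928 to 257746 TPM in control muscle, 40521 to 54413 TPM in non-repaired injured muscle at 3 DPI and 164048 to 192895 TPM at 28 DPI. Since TPM sums to a fixed total, a fall in myofiber RNA raises the TPM of other genes, and with median-of-ratios scaling the median log2 fold change of all tested genes at 3 DPI against control moved from 0.96 to 0.32.

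Leukocytes enter skeletal muscle within hours of injury, with granulocytes first and monocytes that become macrophages after them, and these cells clear debris and signal to satellite cells and fibroblasts. Many of the listed genes belong to one receptor system. Integrins and Fc receptors bind targets, adaptors such as Fcer1g carry tyrosine motifs that are phosphorylated by Src-family kinases such as Lyn, and Syk docks on these motifs and passes the signal to Btk and the adaptor Lcp2. The phosphatases Ptpn6 and Inpp5d oppose the signal. Colony-stimulating factor receptors keep myeloid cells alive, and the Ets-family factor Spi1 (PU.1), which binds purine-rich sequence with a GAGGAA core, drives many of these genes in blood cells.

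Because Spi1 is itself on the list, the promoter windows of the members were read from RefSeq (rat build GRCr8), each holding the 250 bases before an annotated transcription start. A window was found for 28 of 42 members, 29 windows in all since Fcgr2a has 2. The letters GAGGAA, on either strand, were present in 19 of 29 member windows (65.5%). The same letters were present in 7812 of 33469 RefSeq windows (23.3%) and in 2062 of 8812 windows of tested genes (23.4%). The longer form GAGGAAGT, which contains GAGGAA and was also searched on both strands, was present in 5 member windows (17.2%), against 2.04% of all windows and 2.21% of those of tested genes. No match was found for Btk, Cd48, Cd84, Clec7a, Coro1a, Fermt3, Inpp5d, Ptpn6 and Tlr2 or in 1 of the 2 windows of Fcgr2a. The 14 members without a window included Spi1, Fcer1g, Fcgr1a, Fcgr2b and Csf2rb. A match describes the sequence and does not show binding. Printed here are windows with a match alone, of 3 members with the longer form (Cd53, Cd37 and Csf2ra) and of 3 members whose levels recur below (Itgam, Cd68 and Lyz2). Each runs 5′ to 3′ along the strand of the gene, ends at the base before the transcription start, and shows the motif in capitals on whichever strand it was found, in the longer form where that is present. The windows lie at chr2:197087897-197088146 for Cd53, chr1:104860785-104861034 for Cd37, chr14:118118-118367 for Csf2ra, chr10:54882442-54882691 for Cd68 and chr7:54798012-54798261 for Lyz2, all on the minus strand, and at chr1:192089342-192089591 on the plus strand for Itgam.
Cd53: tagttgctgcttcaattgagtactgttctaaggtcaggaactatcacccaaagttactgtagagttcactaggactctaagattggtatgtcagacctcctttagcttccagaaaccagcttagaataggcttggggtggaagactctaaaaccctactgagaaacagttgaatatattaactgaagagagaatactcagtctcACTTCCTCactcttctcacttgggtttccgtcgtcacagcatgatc
Cd37: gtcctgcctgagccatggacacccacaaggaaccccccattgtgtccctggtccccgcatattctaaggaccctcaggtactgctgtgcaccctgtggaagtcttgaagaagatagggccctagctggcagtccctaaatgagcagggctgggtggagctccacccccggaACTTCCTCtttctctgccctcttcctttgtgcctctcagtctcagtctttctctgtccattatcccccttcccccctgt
Csf2ra: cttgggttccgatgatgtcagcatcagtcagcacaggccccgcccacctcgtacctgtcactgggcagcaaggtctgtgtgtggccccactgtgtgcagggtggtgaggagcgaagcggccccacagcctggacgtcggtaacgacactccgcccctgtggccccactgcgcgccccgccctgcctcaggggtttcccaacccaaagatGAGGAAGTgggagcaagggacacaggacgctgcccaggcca
Itgam: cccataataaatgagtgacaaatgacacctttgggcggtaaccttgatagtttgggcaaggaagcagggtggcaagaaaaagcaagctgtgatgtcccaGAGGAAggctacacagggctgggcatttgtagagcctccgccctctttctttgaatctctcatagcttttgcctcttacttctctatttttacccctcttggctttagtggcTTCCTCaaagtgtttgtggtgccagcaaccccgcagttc
Cd68: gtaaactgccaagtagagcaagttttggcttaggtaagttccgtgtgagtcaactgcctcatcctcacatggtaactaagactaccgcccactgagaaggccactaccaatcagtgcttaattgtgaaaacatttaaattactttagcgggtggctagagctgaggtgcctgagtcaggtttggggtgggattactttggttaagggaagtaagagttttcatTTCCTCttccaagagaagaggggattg
Lyz2: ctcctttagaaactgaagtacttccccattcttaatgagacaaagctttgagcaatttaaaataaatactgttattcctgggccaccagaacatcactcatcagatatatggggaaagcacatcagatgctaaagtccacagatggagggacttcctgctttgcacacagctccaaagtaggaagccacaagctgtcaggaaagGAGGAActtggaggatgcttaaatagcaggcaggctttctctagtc
The capitals begin 46 bases before the transcription start in Cd53, 79 in Cd37, 41 in Csf2ra, 39 and 151 in Itgam, 27 in Cd68 and 46 in Lyz2.

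In control muscle the genes were expressed at a low level. Between 10 and 18 of the 42 were above 1 TPM in a given control muscle, and 15 had a mean above 1 TPM. The highest means were those of Lyz2 (lysozyme, 15.8 ± 5.85 TPM, SD, n = 4), Cd48 (a surface ligand of the SLAM family, 11.6 ± 4.3 TPM) and Arhgdib (10.1 ± 0.983 TPM). The other 27 members had a mean of 1 TPM or less, and 7 members were listed at 0 in at least one control muscle (Fcgr2b, Fcgr3a, Tlr4, Tlr7, Clec7a, Cd84 and Cd86). Fcgr3a was listed at 0 in all 4, so no fold against control is given for it. The right TA of rat 38 was the lowest of the 4 in 30 of 42 genes. The sum of the 42 genes was 48.9 to 95.6 TPM in control muscle.

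To ask how the leukocyte genes responded to injury without repair, injured muscle was compared with control muscle in limma on log2(TPM + 1). A gene counted as called when its log2 fold change was beyond 1 and its Benjamini-Hochberg adjusted p was under 0.05. All 42 genes rose at 3, 7 and 14 DPI, and 37 rose at 28 DPI. Of all 11328 genes, 48.3%, 45.6%, 25% and 21.1% were called higher on the same days. The median log2 fold change of the 42 was 4.98, 3.58, 2.31 and 1.69, beside 0.96, 0.91, 0.53 and 0.52 for all tested genes. The sum of the 42 genes was 7807 ± 1227 TPM (SD, n = 3) at 3 DPI and 2677 ± 1270 TPM (n = 8) at 7 DPI. It was 756 to 944 TPM at 14 DPI and 445 to 1222 TPM at 28 DPI, and no injured muscle overlapped the control muscles. Every member was above 1 TPM in every injured muscle at 3 and 7 DPI, 41 to 42 were at 14 DPI, and 37 to 42 were at 28 DPI.

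**Figure D1:**
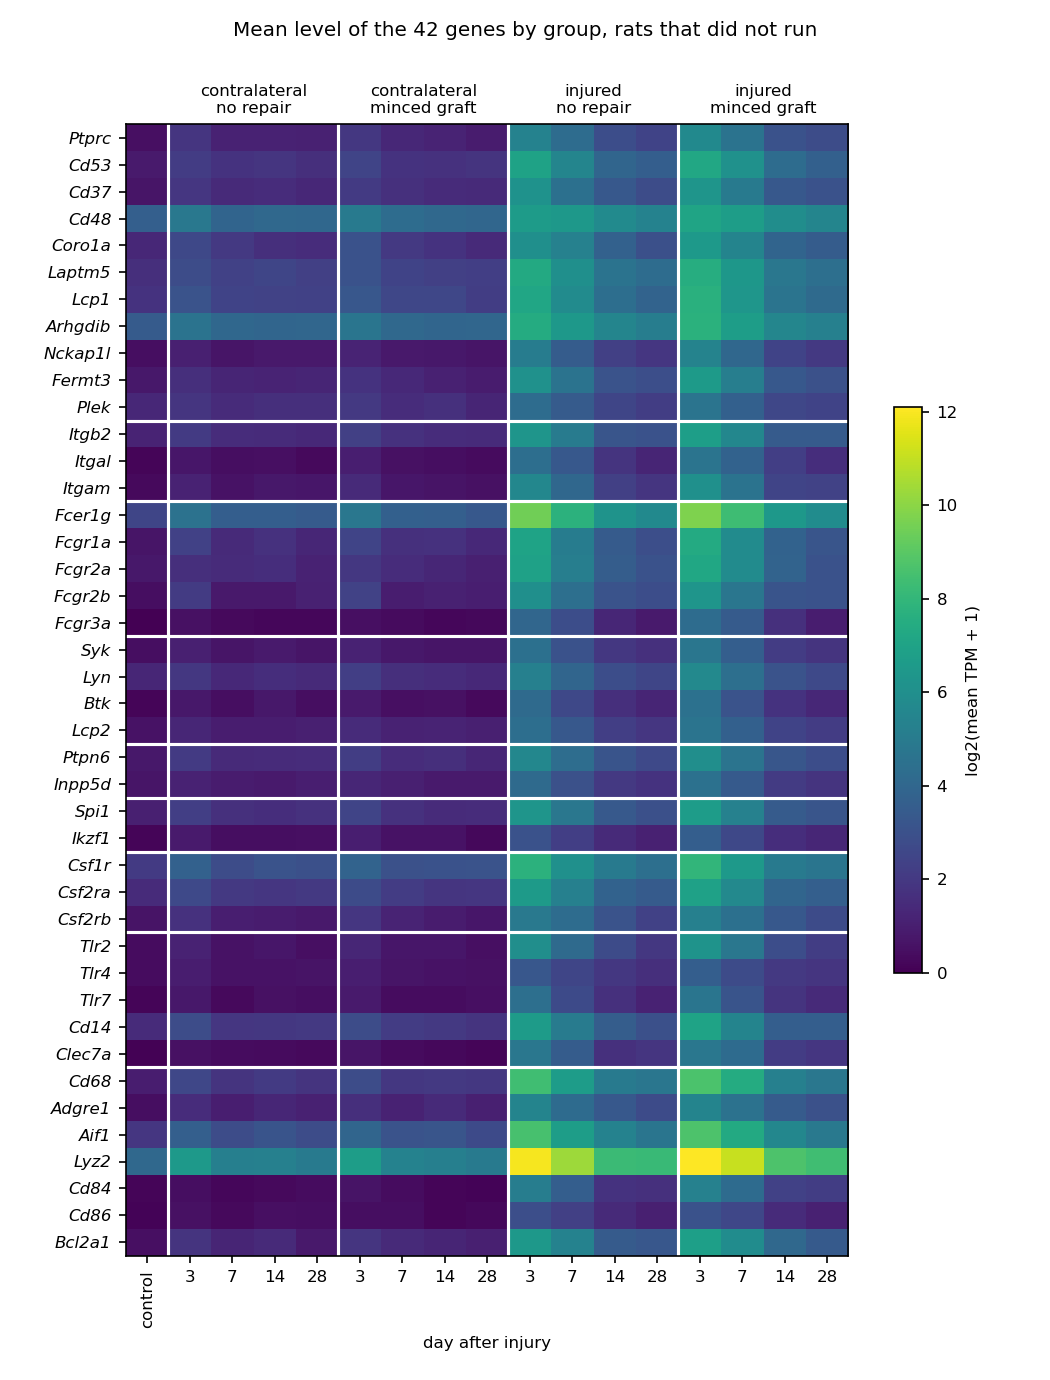
Mean level, log2(mean TPM + 1), of the 42 genes (vertical, grouped by role) in control, contralateral and injured muscle without running at 3, 7, 14 and 28 days post injury (horizontal). Every gene has its highest mean (lightest cell) in graft-repaired injured muscle at 3 days, the contralateral columns at 3 days are lighter than at later days for Lyz2 and Fcer1g, and Lyz2 is the highest gene in every group.

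Among the genes shared by most leukocytes, Ptprc (CD45, the tyrosine phosphatase of nucleated blood cells) was 0.42, 0.47, 0.64 and 0.08 TPM in the control muscles and 37.9, 42.5 and 40.1 TPM in injured muscle at 3 DPI. It ranged from 9.45 TPM over a median of 16.95 TPM to 30.05 TPM at 7 DPI. It was 5.58, 5.1, 7.11 and 6.81 TPM at 14 DPI and 3.05, 3.36, 4.08 and 7.28 TPM at 28 DPI. The lowest injured muscle was above the highest control muscle on every day, and the log2 fold changes were 4.89 ± 0.27 (SE), 3.69 ± 0.22, 2.36 ± 0.25 and 1.91 ± 0.25 (limma, adjusted p = 1.72e-29 at 3 DPI and 3.42e-10 at 28 DPI). The other pan-leukocyte genes spanned log2 fold changes from 2.92 for Plek (pleckstrin) to 6.14 for the tetraspanin Cd53 at 3 DPI. Cd53 went from a mean of 0.81 TPM in control muscle to 124 TPM at 3 DPI and 11.4 TPM at 28 DPI. The actin regulators Coro1a (4.65 at 3 DPI), Lcp1 (5.39) and Nckap1l (4.63) and the integrin activator Fermt3 (5.33) also rose, and the role group had a median of 4.89 at 3 DPI and 1.91 at 28 DPI.

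The leukocyte integrins bind endothelial ligands and complement fragments, with Itgam (CD11b) or Itgal (CD11a) paired with the beta chain Itgb2. Itgam was 0.29, 0.33, 0.3 and 0.04 TPM in control muscle and 50.3, 44.7 and 48.1 TPM at 3 DPI. At 7 DPI it had a lowest, median and highest level of 5.67, 13.25 and 27.41 TPM, and at 28 DPI it was 1.79, 2.36, 2.47 and 4.13 TPM. The groups did not overlap, with log2 fold changes of 5.30 ± 0.33 at 3 DPI and 1.54 ± 0.31 at 28 DPI. Itgal rose from between 0.12 and 0.15 TPM to 22.2, 19.3 and 17.7 TPM at 3 DPI and was 1.25, 0.87, 1.47 and 2.05 TPM at 28 DPI. Its log2 fold change was 4.19 ± 0.21 at 3 DPI and 1.07 ± 0.19 at 28 DPI. Without rat 82, the highest muscle at 28 DPI, the fold change of Itgal was 0.95 and it was no longer called.

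Fc receptors, which bind the constant part of antibodies, were the role group with the largest median at 3 DPI (log2 fold change 6.17), ahead of the macrophage genes (5.94). Fcer1g, the signaling chain shared by the activating receptors, was 4.62, 4.64, 5.92 and 4.02 TPM in control muscle. It reached 925, 636 and 600 TPM at 3 DPI, and 93.44, 205.6 and 408.7 TPM as lowest, median and highest at 7 DPI. At 14 DPI it was 65.8, 67.8, 86.9 and 69.2 TPM, and at 28 DPI 32.7, 43.2, 38.7 and 98.5 TPM. The levels were thus still above every control muscle at 28 DPI, with log2 fold changes from 6.94 ± 0.34 at 3 DPI to 3.10 ± 0.32 at 28 DPI (adjusted p = 2.86e-14). The high-affinity receptor Fcgr1a rose from between 0.41 and 0.76 TPM to between 104 and 170 TPM at 3 DPI and was 5.42 to 8.91 TPM at 28 DPI. The inhibitory receptor Fcgr2b rose from between 0 and 0.51 TPM to between 59.6 and 67.3 TPM and was 4.77 to 7.63 TPM at 28 DPI. Fcgr1a exceeded Fcgr2b by a ratio of 1.56 to 2.85 at 3 DPI, and the ratio was 0.948 to 1.17 at 28 DPI. Fcgr2a, Fcgr2b, Fcgr3a and Lyz2 have closely related copies in the rat genome, and how reads were divided among such copies is not given in the sources used here, so their single levels are uncertain.

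The kinases and adaptors downstream of these receptors were less abundant. Syk was 0.32, 0.44, 0.46 and 0.2 TPM in control muscle and 21.9, 21.2 and 20.4 TPM at 3 DPI. Its lowest, median and highest levels at 7 DPI were 3.79, 6.905 and 12.62 TPM, and at 28 DPI the 4 muscles were at 1.81, 1.73, 1.73 and 3.39 TPM. The log2 fold change was 4.0 ± 0.22 at 3 DPI and 1.20 ± 0.21 at 28 DPI, with no overlap of injured and control muscles. Lyn, Btk and Lcp2 rose by 4.02, 4.0 and 3.79 on the log2 scale at 3 DPI and by 1.30, 1.08 and 1.33 at 28 DPI. Of the opposing phosphatases, Inpp5d (SHIP-1) was 0.59, 0.64, 0.81 and 0.35 TPM in control muscle and 19.2, 16.6 and 15.3 TPM at 3 DPI, and Ptpn6 (SHP-1) went from a mean of 0.703 to 47.9 TPM. The phosphatase group had a median of 4.17 and the kinase group of 4.01 at 3 DPI. Activating and opposing members rose on the same days.

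The receptor for macrophage colony-stimulating factor, Csf1r, was 2.82, 3.2, 4.38 and 2.32 TPM in control muscle and 214, 224 and 212 TPM in injured muscle at 3 DPI. It ranged from 32.59 TPM over a median of 65.64 TPM to 101.3 TPM at 7 DPI and was 17.2, 20, 19.3 and 25.8 TPM at 28 DPI. The log2 fold changes were 5.73 ± 0.26 at 3 DPI and 2.38 ± 0.24 at 28 DPI, and the groups did not overlap. Csf2rb, the signaling chain of the receptor for granulocyte-macrophage colony-stimulating factor, was 0.28 to 0.83 TPM in control muscle, 24.4, 35.9 and 25.7 TPM at 3 DPI and 10.31 to 30.04 TPM at 7 DPI, so its ranges at 3 and 7 DPI overlapped. At 14 DPI it was 6.58 to 9.5 TPM and at 28 DPI 3.09 to 5.26 TPM. The ratio of Csf2rb to Csf1r was 0.114 to 0.160 at 3 DPI and 0.220 to 0.354 at 7 DPI, without overlap. With graft it was 0.083 to 0.190 and 0.189 to 0.268, and the days overlapped. The transcription factor Spi1 was 0.97 to 1.24 TPM in control muscle, 99.3, 66.8 and 67.8 TPM at 3 DPI and 4.8 to 11.2 TPM at 28 DPI, with log2 fold changes of 5.22 ± 0.29 and 1.83 ± 0.27. Ikzf1, a lymphoid and myeloid zinc-finger factor, rose less (2.87 at 3 DPI) and had a log2 fold change of 0.93 at 28 DPI, under the limit.

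On the log2(TPM + 1) scale, macrophage genes held the largest single changes. By the ratio of group means at 3 DPI the order differed, with Clec7a (441-fold) above Cd68 (337-fold), Cd84 (251-fold) and Lyz2 (248-fold). Fcgr3a was listed at 0 in all 4 control muscles and has no such ratio. Lyz2, the lysozyme of macrophages and granulocytes, was 16, 15.7, 22.9 and 8.6 TPM in control muscle and 4550, 3350 and 3870 TPM at 3 DPI. Its lowest, median and highest levels at 7 DPI were 450.7, 1267 and 2300 TPM. The muscles were at 277, 277, 335 and 329 TPM at 14 DPI and at 159, 221, 179 and 628 TPM at 28 DPI. No injured muscle came near the control range, and the log2 fold changes were 7.93 ± 0.38, 6.13 ± 0.31, 4.25 ± 0.36 and 3.98 ± 0.36 (adjusted p = 4.63e-33 at 3 DPI and 1.19e-16 at 28 DPI). Lyz2 made up 17.6 to 24% of the summed level of the 42 genes in control muscle and 48.3 to 53.2% at 3 DPI. Cd68, a lysosomal protein used to stain macrophages, was 0.92, 0.77, 1.39 and 0.86 TPM in control muscle, 443, 278 and 275 TPM at 3 DPI, 40.91 to 196.5 TPM at 7 DPI and 14.8, 16.9, 13.6 and 59.4 TPM at 28 DPI. Its log2 fold changes ran from 7.36 ± 0.37 at 3 DPI to 3.50 ± 0.34 at 28 DPI. Adgre1, the surface receptor that defines many tissue macrophages in rodents, rose from between 0.08 and 0.52 TPM to between 34.3 and 51.5 TPM, with a log2 fold change of 5.0 ± 0.21. Cd86, a costimulatory ligand, was 0.1, 0.23, 0 and 0 TPM in control muscle and 7.66, 6.81 and 5.24 TPM at 3 DPI, and it had the smallest log2 fold change of the 42 at 3 DPI (2.80 ± 0.23). That rank holds on the log2(TPM + 1) scale. The control level of Cd86 was 1.26% of its 3 DPI level, against 11.8% for Cd48 and 8.54% for Plek, so by ratio both rose less than Cd86. At 28 DPI the change of Cd86 was 0.93, under the limit.

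The pattern receptors bind microbial and damage-derived ligands. Cd14, the co-receptor of lipopolysaccharide sensing, was 1.1 to 2.1 TPM in control muscle, 128, 92.9 and 77.8 TPM at 3 DPI and 5.48 to 8.23 TPM at 28 DPI, with log2 fold changes of 5.17 ± 0.31 and 1.50 ± 0.29. Tlr2 was 0.21, 0.41, 0.4 and 0.21 TPM in control muscle, 74.5, 59.2 and 50.9 TPM at 3 DPI and 1.75, 2.68, 2.11 and 4.98 TPM at 28 DPI, with log2 fold changes of 5.57 ± 0.27 and 1.51 ± 0.25. Tlr4, which signals with Cd14, was lower and changed less, with a mean of 8.79 TPM at 3 DPI and a log2 fold change of 2.89. The endosomal receptor Tlr7 was at most 0.27 TPM in control muscle, 18.6, 22.8 and 19.7 TPM at 3 DPI and 0.82 to 1.68 TPM at 28 DPI, where its log2 fold change of 0.99 did not pass the limit. The lectin Clec7a (Dectin-1) rose from a mean of 0.06 to 26.5 TPM. The 5 members without a call at 28 DPI were Fcgr3a, Plek, Ikzf1, Cd86 and Tlr7.

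**Figure D2:**
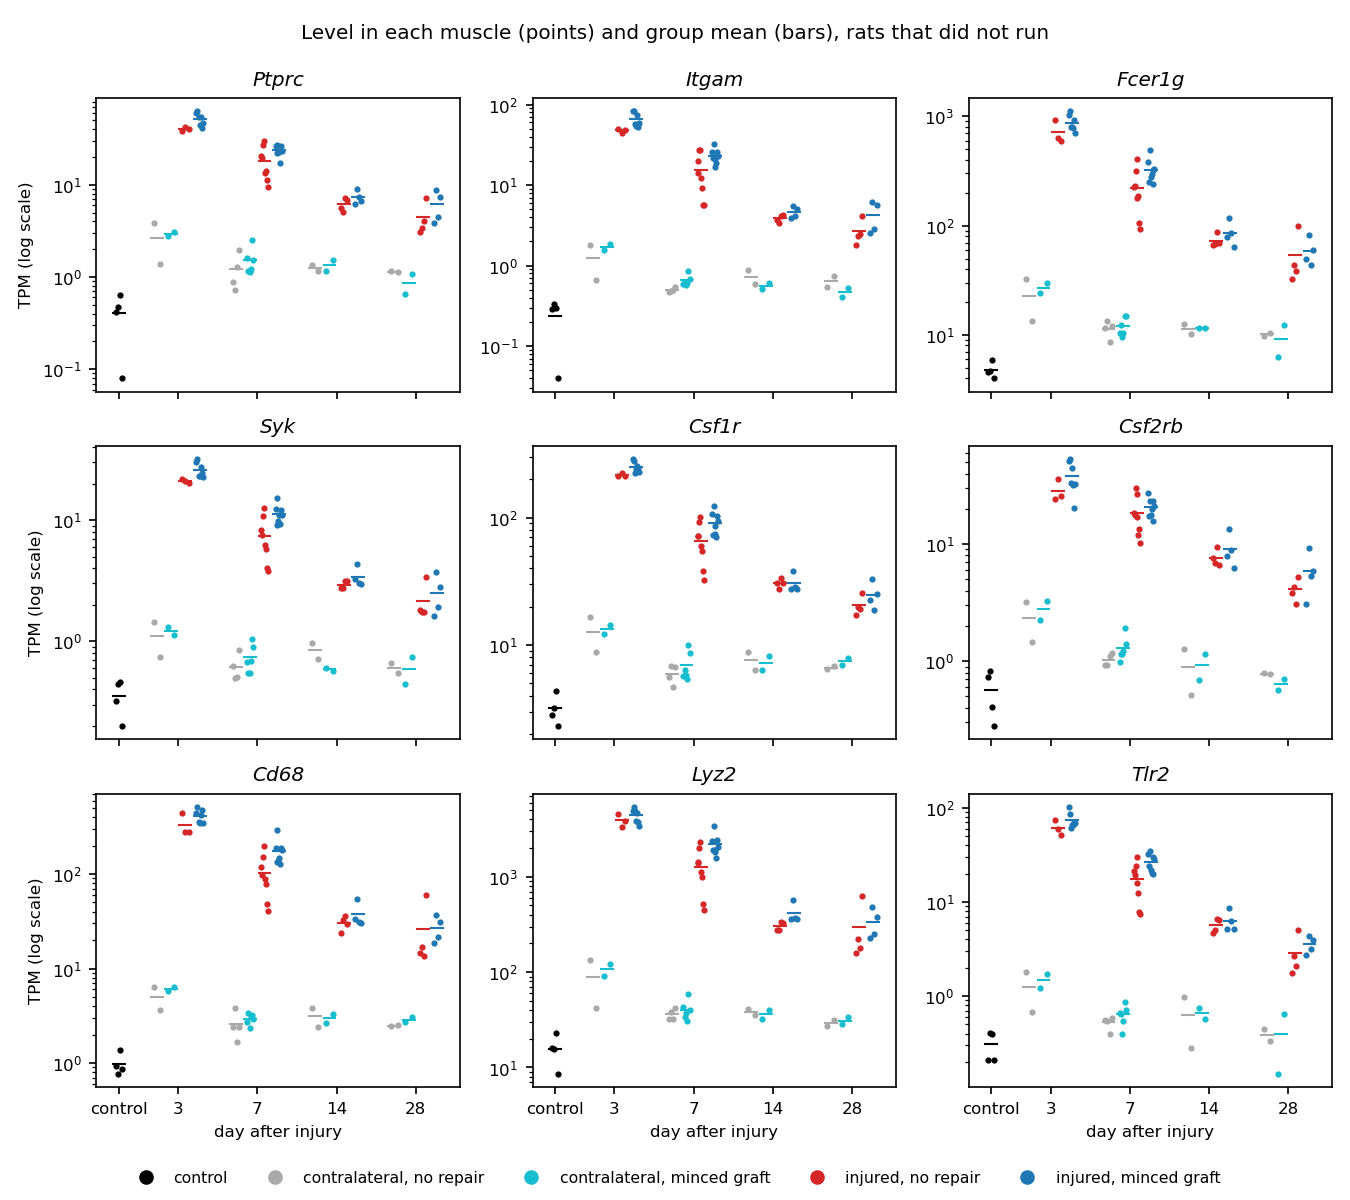
TPM (log axis) of 9 genes in each control, contralateral and injured muscle of rats that did not run, by day, with points for muscles and bars for group means. Injured muscles of both arms lie above all control muscles on every day for these genes, the 8 non-repaired muscles at 7 days spread widely, and 1 non-repaired muscle (rat 82) stands above the others at 28 days for Cd68 and Lyz2.

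Markers of other cells moved over the same days, and their part in the result was not tested. The summed level of 8 T cell markers was 0.89 to 2.46 TPM in control muscle, 95.4 to 112 TPM at 3 DPI and 6.48 to 11.3 TPM at 28 DPI, and 7 of 7 tested T cell markers were called higher at 3 DPI and 1 at 28 DPI (48.3% and 21.1% of all genes, here and for the lists that follow). The neutrophil sum was 1.21 to 5.74 TPM in control muscle and 76.3 to 275 TPM at 3 DPI (5 of 6 tested markers called higher), with a mean of 10.1 TPM at 28 DPI. B cell markers summed to 0.06 to 0.29 TPM in control muscle and to 1.80 to 2.16 TPM at 3 DPI. Fibroblast markers summed to 63.9 to 211 TPM in control muscle, 4035 to 6873 TPM at 3 DPI and 2049 to 3148 TPM at 28 DPI (5 of 5 called on both days). All 8 myofiber markers were called lower at 3 DPI (4.24% of all genes).

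Control and operated rats differ in number series, so the same muscles were compared with the contralateral TA of non-repaired rats. All 42 genes were higher in injured muscle at 3 and 7 DPI, 39 at 14 DPI and 30 at 28 DPI, where 32.3%, 45.3%, 20.9% and 13.1% of all tested genes were called higher. The median log2 fold change of the 42 was 3.99, 3.10, 1.69 and 1.29 (all genes 0.54, 0.91, 0.50 and 0.38). Cd68 was 6.42 and 3.62 TPM in the contralateral muscles at 3 DPI, 1.68 to 3.85 TPM at 7 DPI and 2.44 and 2.54 TPM at 28 DPI. Its log2 fold change was 5.79 ± 0.44 at 3 DPI and 2.68 ± 0.42 at 28 DPI (adjusted p = 1.83e-07). Lyz2 was 136 and 42.2 TPM in contralateral muscle at 3 DPI and 27.5 and 31.7 TPM at 28 DPI, with log2 fold changes of 5.66 ± 0.46 and 3.05 ± 0.44. The smallest fold changes at 3 DPI were those of Cd48 (1.84 ± 0.26), Ikzf1 (2.19) and Tlr4 (2.33).

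By role, the contralateral comparison at 28 DPI called 3 of 3 colony-stimulating factor receptors, 4 of 5 Fc receptor genes, 6 of 7 macrophage genes and 10 of 11 pan-leukocyte genes. It called 1 of 4 kinases and adaptors (Lyn), 2 of 5 pattern receptors, 1 of 2 phosphatases, 2 of 3 integrins and 1 of 2 transcription factors. Syk had a log2 fold change of 0.95 ± 0.25, under the limit. The difference between role groups was not tested. Without rat 82, the count at 28 DPI was 25 against contralateral muscle and 33 against control muscle, and with median-of-ratios scaling it was 24 and 36.

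Injured muscle repaired with minced graft was compared with its own contralateral muscle in the same way. The genes were called higher in 42, 42, 40 and 38 cases at 3, 7, 14 and 28 DPI, with backgrounds of 37.2%, 42.9%, 25.6% and 18.8%. The medians were 4.12, 3.42, 1.90 and 1.71, beside 0.66, 0.85, 0.58 and 0.49 for all genes. Cd68 was highest at 3 DPI (log2 fold change 5.86 ± 0.38, 414 against 6.08 TPM), and Lyz2 was highest at 28 DPI (3.33 ± 0.44, 336 against 31.1 TPM). At 28 DPI Fcgr3a, Cd86, Tlr7 and Inpp5d were not called. Without rat 76, the highest muscle of its group in 41 of 42 genes, the count at 28 DPI was 33, and with median-of-ratios scaling it was 31.

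**Figure D3:**
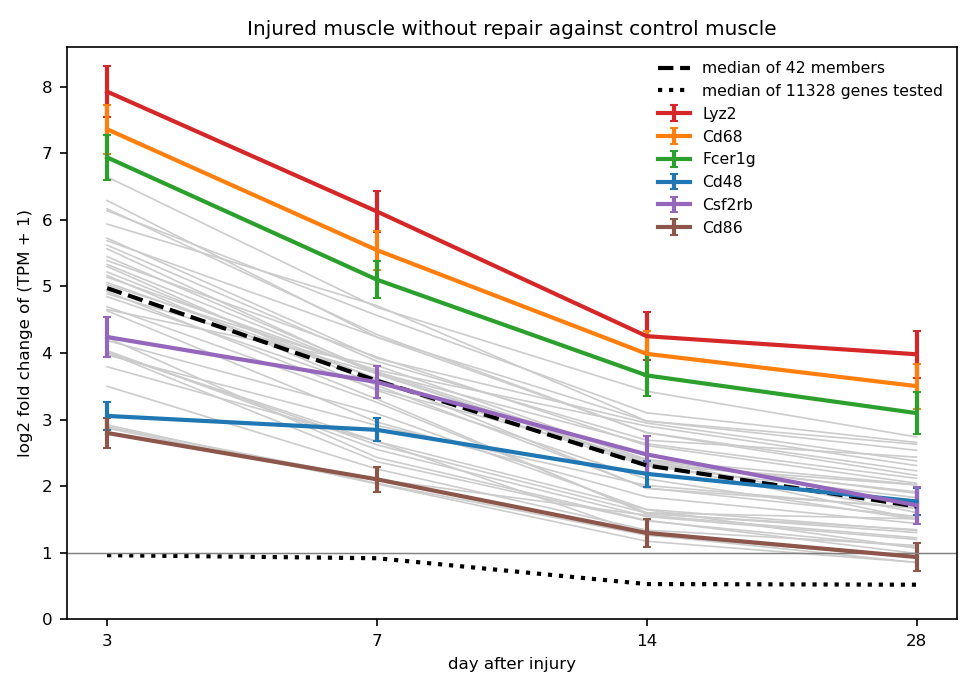
Log2 fold change, on the log2(TPM + 1) scale, of each of the 42 genes in non-repaired injured muscle against control muscle (vertical) by day (horizontal), with 6 genes in colour and bars for their SE. The dashed median of the 42 genes runs from 4.98 to 1.69 and the dotted median of all 11328 tested genes from 0.96 to 0.52, and Cd48 has the flattest course of the coloured genes.

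To describe the decline, consecutive days of non-repaired injured muscle were compared. From 3 to 7 DPI, 35 of 42 genes fell (5.35% of all genes were called lower), and the median over the 42 was -1.45 on the log2 scale (all genes -0.06). From 7 to 14 DPI, 31 fell (6.1% of all genes), with a median of -1.28 (all genes -0.40). With median-of-ratios scaling the count from 7 to 14 DPI was 18 (median -0.96), and with the low-complexity libraries kept it was 15. Of those libraries, 3 were of these muscles at 7 DPI and 0 at 14 DPI, so keeping them changed the 7 DPI levels alone. From 14 to 28 DPI, 0 were called by limma (0.353% of all genes were lower) and 16 had an unadjusted p under 0.05 (13.8% of all genes), with a median of -0.42 (all genes -0.01). The lowest value there was that of Tlr2, with a log2 fold change of -0.85 ± 0.25 (adjusted p = 0.0606). Without rat 82, Tlr2 was the 1 member called. The mean level at 7 DPI was a median of 38.9% of the 3 DPI level over the 42 genes, and 12.7% and 9.53% at 14 and 28 DPI.

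The days differ in rat number too, and for 14 and 28 DPI the day and the number range cannot be told apart. The 3 DPI rats are 10, 17 and 18, the 7 DPI rats come from 3 ranges (11 to 20, 105 and 106, 125 and 126), the 14 DPI rats are 129, 133, 137 and 141, and the 28 DPI rats are 73, 74, 81 and 82. The level at 7 DPI was a median of 51.4% of the 3 DPI level in the first range, 28.7% in the second and 17.6% in the third. The level at 14 DPI was a median of 26.1%, 45.4% and 73.2% of the 7 DPI level of the same ranges. With 7 DPI rats numbered below 100 alone, chosen after seeing the data, 20 genes fell from 3 to 7 DPI (2.9% of all genes) and 40 from 7 to 14 DPI (14.2%), with medians of -0.96 and -1.80. With those above 100 alone, 40 fell from 3 to 7 DPI (8.84%) and 5 from 7 to 14 DPI (2.35%), with medians of -2.03 and -0.74. Those 5 were Lyz2, Cd84, Bcl2a1, Itgal and Clec7a.

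The share of the 3 DPI level that was left at 7 DPI ranged from 25.8 to 88.6% among the genes, and the differences between genes were not tested. Fcgr1a fell from a mean of 128 TPM at 3 DPI to 33.1 TPM at 7 DPI (log2 fold change -2.05 ± 0.27, adjusted p = 1.24e-09). Aif1 (IBA1, a macrophage actin-binding protein) fell by 1.96 ± 0.27 and Fcgr2a by 1.89 ± 0.28 on the log2 scale. The ranges of Fcgr1a at 3 DPI (104 to 170 TPM) and 7 DPI (12.38 to 64.85 TPM) did not overlap. At the other end, Cd48 had means of 98.9 TPM at 3 DPI and 87.6 TPM at 7 DPI, with a log2 fold change of -0.21 ± 0.19 (adjusted p = 0.395). Its 7 DPI level was 109%, 72.3% and 64.1% of the 3 DPI level in the 3 number ranges, the highest of the 42 genes in each. Csf2rb was at 63.8% (log2 fold change -0.68 ± 0.26, adjusted p = 0.0333) and Coro1a 60.4%, and with Cd86, Plek, Tlr4 and Ikzf1 these made up the 7 members not called. With 7 DPI rats numbered above 100 alone, Coro1a (-1.42), Plek (-1.38), Ikzf1 (-1.13), Cd86 (-1.11) and Csf2rb (-1.06) were called lower. With those below 100 alone, Coro1a was at -0.26 and Csf2rb at -0.30. Cd48 and Tlr4 were called in neither set. Over all 7 DPI rats, all 5 Fc receptor genes, all 3 integrins, all 4 kinases and adaptors and both phosphatases fell, as did 8 of 11 pan-leukocyte genes (5.35% of all genes). With 7 DPI rats numbered below 100 alone (2.9% of all genes), Fcgr3a, Itgb2, Itgal, Lyn, Lcp2, Ptpn6 and Inpp5d were not called (log2 fold changes -0.72 to -0.96). Nor were the pan-leukocyte genes Lcp1, Laptm5, Ptprc and Arhgdib. From 7 to 14 DPI the largest falls were those of Lyz2 (1278 to 305 TPM), Bcl2a1, a survival gene of the Bcl2 family (40.8 to 10.1 TPM), and Cd84 (11.4 to 2.41 TPM), and the smallest those of Tlr4 (log2 fold change -0.54) and Cd48 (-0.66).

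**Figure D4:**
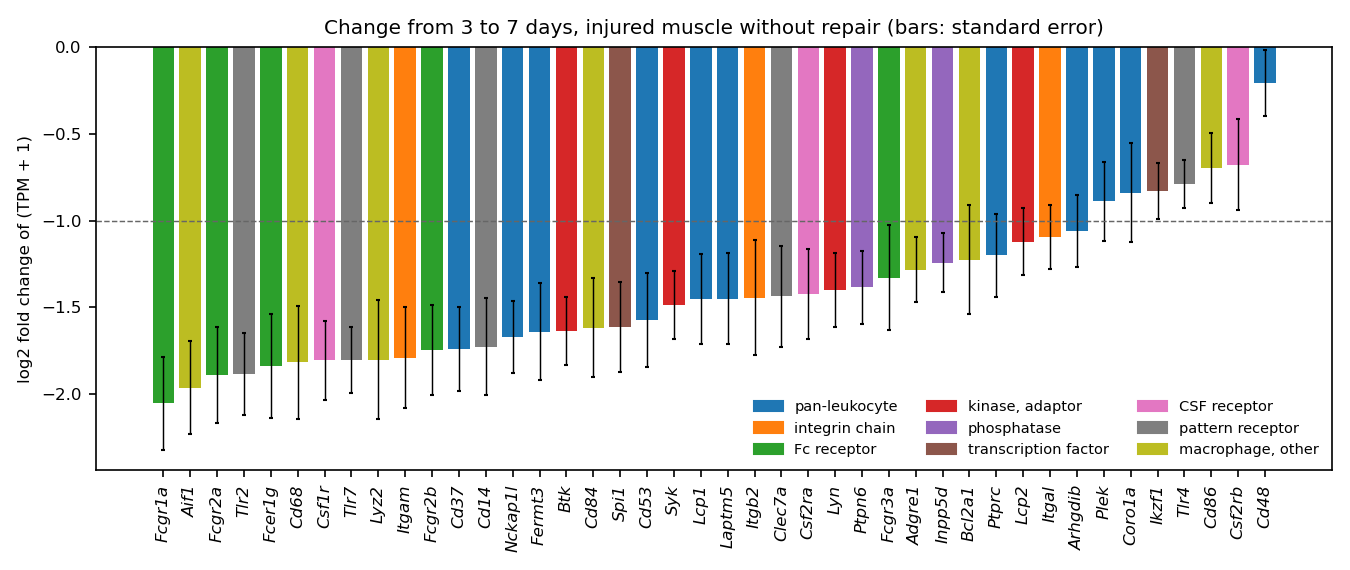
Log2 fold change from 3 to 7 days in non-repaired injured muscle (with SE) for the 42 genes, ordered by size and coloured by role, with the limit of -1 as a dashed line. Fcgr1a, Aif1 and Fcgr2a lie at the low end near -2, and Cd48 at -0.21 lies nearest 0.

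The ratio of Cd48 to Cd68 was 6.64 to 18.5 in control muscle, 0.213 to 0.403 at 3 DPI, 0.600 to 1.44 at 7 DPI, 1.60 to 2.12 at 14 DPI and 0.774 to 3.02 at 28 DPI. The values of 3 and 7 DPI did not overlap, and no injured muscle reached the control range. Over the same interval the T cell marker sum went from a mean of 105 TPM to 42.9 TPM, the natural killer cell sum from 6.94 to 14.3 TPM and the mast cell sum from 34.5 to 45.5 TPM. The part of these cells in the levels of Cd48 and Csf2rb left at 7 DPI was not tested.

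Whether minced graft repair changed the level of these genes was asked by comparing repaired with non-repaired injured muscle. No member was called on any day (0 of 42 at 3, 7, 14 and 28 DPI by limma), where 0.00883%, 0.0883%, 0.0265% and 0% of all genes were called in either direction. At 7 DPI this count depended on the rats included. At an unadjusted p under 0.05 there were 3, 39, 1 and 1 members, and 17.3%, 27%, 5.23% and 1.24% of all genes. The median log2 fold change of the 42 was 0.31, 0.54, 0.16 and 0.23, beside 0.14, 0.11, 0.12 and 0.08 for all genes. Against the limit of adjusted p alone, with no limit on fold change, 26 members were higher with graft at 7 DPI (8.15% of all genes). The sum of the 42 genes at 7 DPI was 2677 ± 1270 TPM without repair and 4185 ± 1006 TPM with graft (SD, n = 8 each), and the groups overlapped.

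At 7 DPI, Lyz2 was 450.7, 1267 and 2300 TPM (lowest, median, highest) without repair and 1575 to 3439 TPM with graft, with means of 1278 and 2191 TPM. Its log2 fold change was 0.94 ± 0.25 (adjusted p = 0.0137). Cd68 was 40.91 to 196.5 TPM without repair and 126.9 to 289.1 TPM with graft (log2 fold change 0.88 ± 0.24, adjusted p = 0.0148). The same comparison gave 0.87 ± 0.20 for Fcgr1a (adjusted p = 0.0038) and 0.61 ± 0.15 for Syk (adjusted p = 0.00595). Csf2rb (0.23 ± 0.19, adjusted p = 0.435), Cd48 (0.28) and Coro1a (0.29) differed least. In every one of these genes the ranges of both arms overlapped.

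The 7 DPI rats carry numbers in 3 ranges (11 to 24, 105 to 108 and 125 to 128), and the level without repair moved with the range. Non-repaired sums were 2978, 2885, 4058 and 4743 TPM in rats 11, 12, 19 and 20, 2302 and 2092 TPM in rats 105 and 106, and 1251 and 1109 TPM in rats 125 and 126. Sums with graft were 4701, 3613, 6317 and 3629 TPM in rats 15, 16, 23 and 24, 3641 and 3066 TPM in rats 107 and 108, and 4462 and 4051 TPM in rats 127 and 128. The median log2 fold change of the 42 genes between arms was 0.16 in the first range, 0.52 in the second and 1.40 in the third. Cd68 differed by 0.39, 0.71 and 2.02 and Ptprc by 0.04, 0.50 and 1.21. Graft was higher than no repair in 39, 42 and 42 of 42 members. With the number range as a covariate, an alternative chosen after seeing the data, 0 members were called, 40 had an unadjusted p under 0.05 (28.2% of all genes) and 28 passed the adjusted p alone (10.1% of all genes). With the low-complexity libraries kept, 15 members were called (1.03% of all genes). Of those libraries, 3 were of non-repaired injured muscle at 7 DPI without running and 0 of graft-repaired muscle. Keeping them therefore changed the levels of the non-repaired arm alone. Both ends of the number series were also fitted alone, again chosen after seeing the data. In rats numbered above 100 (4 muscles an arm), 19 members were called higher with graft (1.03% of all genes) and 39 passed the adjusted p alone (14.3%), with a median of 0.93 (all genes 0.17). The highest were Lyz2 (1.46 ± 0.34, adjusted p = 0.0025), Clec7a (1.46 ± 0.28) and Cd68 (1.36 ± 0.32). In rats numbered 11 to 24, 0 were called by either limit (0.00883% of all genes by each) and 0 had an unadjusted p under 0.05. The difference between the ranges was not tested. Without rat 20, Lyz2, Cd68, Fcgr1a and Clec7a were called, and without rat 19, Lyz2. The myofiber marker sum without repair was 58829 to 79487 TPM in the first range, 86731 and 93096 TPM in the second and 127572 and 105580 TPM in the third, and with graft 48166 to 101173 TPM over all ranges. Its part in the result was not tested, and what differed between the number ranges is not given in the labels.

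**Figure D5:**
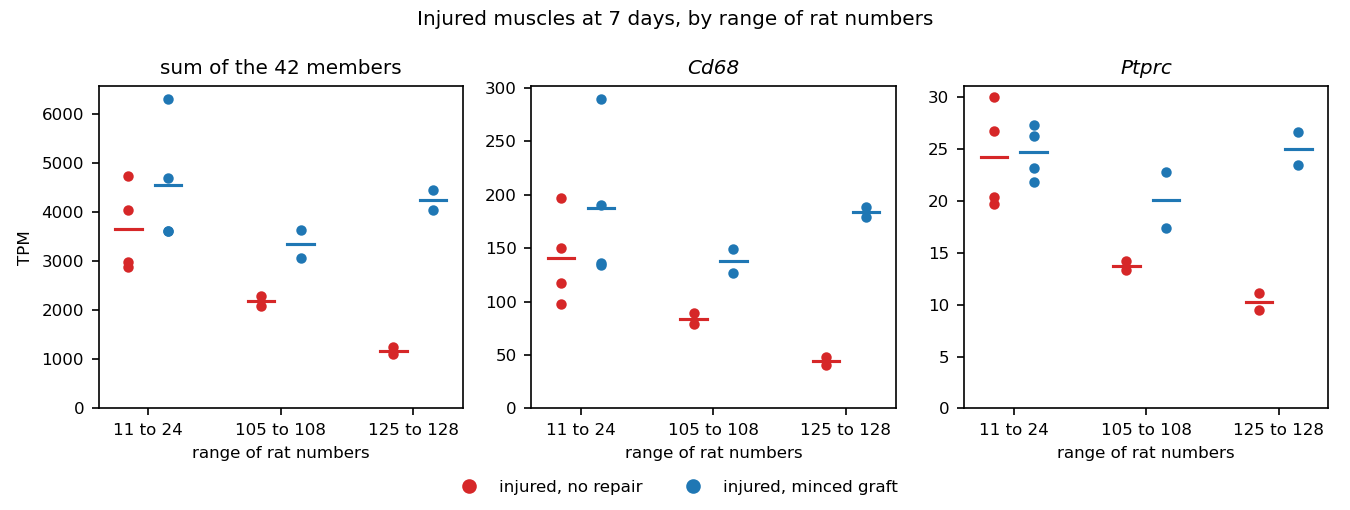
Summed TPM of the 42 genes, Cd68 and Ptprc in each injured muscle at 7 days without running, by range of rat numbers, without repair and with minced graft. Muscles with graft lie at 3066 to 6317 TPM in the sum over all ranges, while those without repair go from 2885 to 4743 TPM in rats 11 to 24 down to 1109 and 1251 TPM in rats 125 and 126.

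The effect of injury, each arm against its own contralateral muscle, was compared between arms by an interaction term. No member was called on any day (0 by limma), as for all genes (0% on each day). Unadjusted p was under 0.05 in 0, 6, 0 and 0 members (2.09%, 11.5%, 0.883% and 0.556% of all genes), and the median difference of the 42 was 0.13, 0.42, 0.18 and 0.28. At 7 DPI Clec7a had the largest difference (0.88, adjusted p = 0.415), with Lyz2 at 0.80 and Cd68 at 0.71. The arms are not matched for number range on that day. Contralateral muscle without repair came from rats 105, 106, 125 and 126, and that with graft from rats 15, 16, 107, 108, 127 and 128, while injured muscle of each arm included 4 rats numbered 11 to 24. In rats numbered above 100, where each range holds both arms and both legs, 0 members were called (0.141% of all genes), 32 had an unadjusted p under 0.05 (10.8%) and the median difference was 0.81 (all genes 0.01). Clec7a was again the largest there (1.49 ± 0.40, adjusted p = 0.111).

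Uninjured contralateral muscle was compared with control muscle over both arms. At 3 DPI, 23 members were higher (7.09% of all genes), and limma called 2, 6 and 0 at 7, 14 and 28 DPI (0.9%, 0.953% and 0.494%). At an unadjusted p under 0.05 there were 38, 29, 19 and 18 members, and 69.5%, 28.2%, 20.9% and 16.8% of all genes. With median-of-ratios scaling the count at 3 DPI was 18 (median of the 42 genes 0.87, all genes 0.10), and with a pseudocount of 0.1 TPM it was 41. The medians of the 42 were 1.15, 0.52, 0.48 and 0.40, beside 0.44, 0.10, 0.07 and 0.12 for all genes. Lyz2 was 136 and 42.2 TPM in the non-repaired rats and 90.6 and 123 TPM in the graft rats at 3 DPI, all above the highest control muscle at 22.9 TPM, with a log2 fold change of 2.50 ± 0.36 (adjusted p = 2.29e-08). Fcer1g was 32.2, 13.5, 24.4 and 29.7 TPM against 4.02 to 5.92 TPM (2.10 ± 0.32), and Aif1 rose by 1.81 ± 0.28. Ptprc was 3.86, 1.39, 2.81 and 3.1 TPM, again above every control muscle.

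The 23 genes at 3 DPI comprised 3 of 3 colony-stimulating factor receptors, 4 of 5 Fc receptor genes, 5 of 7 macrophage genes, 8 of 11 pan-leukocyte genes, the phosphatase Ptpn6, Spi1 and Cd14. Of the 3 integrins and the 4 kinases and adaptors none passed the limit on fold change in limma, although all 7 had an adjusted p under 0.05. Their log2 fold changes went from 0.65 for Btk to 0.97 for Itgam. The pseudocount of 1 TPM understates changes of low genes. With 0.1 TPM, 41 of the 42 members were called at 3 DPI, so this split by role depends on the scale. At 7 DPI the called members were Lyz2 (1.28) and Fcer1g (1.12), and at 14 DPI Lyz2 (1.25), Aif1 (1.24), Fcer1g (1.11), Cd68 (1.03), Csf1r (1.02) and Fcgr1a (1.00). The 4 control muscles are both legs of 2 rats, and with control muscles averaged per rat 23, 0 and 1 members were called at 3, 7 and 14 DPI. Rat 17 was lowest of the 4 contralateral muscles at 3 DPI in 41 of 42 genes, all but Fcgr3a, and its neutrophil marker sum was 8.71 TPM against 104 to 106 TPM in rats 10, 13 and 14. Control muscle had 1.21 to 5.74 TPM. Fibroblast markers in the 4 contralateral muscles summed to 523 to 1184 TPM against 63.9 to 211 TPM in control muscle. Mast cell markers summed to 12.3 to 26.1 TPM against 4.54 to 5.32 TPM, and platelet markers to 26.5 to 79.1 TPM against 14.7 to 21.9 TPM. Of 11 marker lists, 9 were higher in all 4 contralateral muscles than in any control muscle. How many of all genes separated in this way was not counted. In limma 69.5% of all tested genes had an unadjusted p under 0.05 in this comparison, so the count of lists is not particular to these cells. The myofiber sum was lower without overlap (162181 to 185544 against 198928 to 257746 TPM). The erythroid sum overlapped, at 1036 TPM in rat 17 and 5204 to 7956 TPM in the other rats against 1612 to 4441 TPM. The part of these cells in the higher levels was not tested. Without rat 17 the count at 3 DPI was 27, and without rat 10 it was 19. The count at 14 DPI was 1 (Aif1) without the right TA of rat 38, without rat 129 or without rat 135. At 7 DPI it was 5 without the left TA of rat 38, and at 28 DPI it was 2 without that muscle (Csf1r and Lyz2) and 1 without rat 75 (Csf1r).

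Since control rats belong to another number series, contralateral muscle at 3 DPI was also compared with contralateral muscle at 7 and 28 DPI, a comparison chosen after seeing the data. The 3 DPI rats are numbered 10 to 17, while 8 of the 10 rats at 7 DPI are numbered above 100 and those at 28 DPI 73 to 76. Against 7 DPI, 2 members were higher (2.52% of all genes), Fcgr2b (1.30 ± 0.23) and Lyz2 (1.22 ± 0.30), and 32 had an unadjusted p under 0.05 (63.7% of all genes). Against 28 DPI, 6 members were higher (1.71% of all genes): Lyz2 (1.53), Coro1a (1.30), Fcer1g (1.25), Fcgr2b (1.14), Fcgr1a (1.03) and Csf2rb (1.02), and 33 had an unadjusted p under 0.05 (54.8% of all genes). The medians of the 42 were 0.52 and 0.65, and those of all genes 0.35 and 0.32. Without rat 10 the counts were 1 and 2, and without rat 17 they were 7 and 11.

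Rats labelled as running were compared with the other rats in injured muscle over both arms. How they ran is not described in the sources used here. Injured muscles of running rats numbered 8, 4, 4 and 2 at 3, 7, 14 and 28 DPI without repair and 6, 4, 4 and 2 with graft. No member was called at 3, 7, 14 or 28 DPI (0 by limma), where 0.0177%, 0%, 0% and 0.309% of all genes were called in either direction, and unadjusted p was under 0.05 in 1, 6, 21 and 0 members (16%, 15.8%, 5.17% and 13.7% of all genes). The medians of the 42 were 0.11, 0.23, 0.34 and 0.12, and those of all genes 0.02, 0.00, 0.04 and -0.09. At 7 DPI all running rats are numbered below 100, as were 4 of 8 of the other rats in each arm. With those alone, chosen after seeing the data, the median at 7 DPI was -0.06 (all genes -0.01), 0 members were called (0% of all genes) and 0 had an unadjusted p under 0.05 (2.97%). At 3 DPI Tlr4 was 12.6 TPM with running and 9.95 TPM without (log2 fold change 0.33 ± 0.09, adjusted p = 0.0471), under the limit on fold change. At 14 DPI the non-repaired sums were 947.5, 1591, 1249 and 1659 TPM with running and 756 to 944 TPM without, and did not overlap, while those with graft were 830 to 2011 TPM and 863 to 1371 TPM and did. The 3 largest differences there were those of Bcl2a1 (0.64 ± 0.23, adjusted p = 0.724), Lyz2 (0.60 ± 0.25, adjusted p = 0.849) and Cd84 (0.59 ± 0.21, adjusted p = 0.724). At 28 DPI the 2 running rats with graft differed from each other, with sums of 1984 TPM in rat 87 and 591 TPM in rat 88. Rat 87 was the higher in 42 of 42 genes. The median at 28 DPI was -0.21 without rat 87 and 0.47 without rat 88, where 1 member (Itgam) was called.

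Other genes of the same pathways were read from lists fixed by function. Against control muscle, 7 of 8 further receptors that signal through tyrosine-motif adaptors rose at 3 DPI and 1 at 28 DPI. These counts stand beside the 48.3% and 21.1% of all tested genes called higher on those days. Trem2, a lipid receptor of macrophages, had log2 fold changes of 6.77 at 3 DPI and 2.55 at 28 DPI, and Trem1 of 4.39 at 3 DPI. Of 9 further inhibitory receptors, 9 rose at 3 DPI and 8 at 28 DPI, led by Lilrb4 (7.72 at 3 DPI) and with Sirpa, the receptor of the "do not eat me" ligand, at 3.93 at 28 DPI. Cd22, a B cell receptor, was at 2.22 and 0.51. Downstream signaling genes rose in 19 of 20 cases at 3 DPI and in 15 at 28 DPI, with the unconventional myosin Myo1f at 5.22 and Cyth4 at 5.17 at 3 DPI, and Pik3ap1 (0.50) and Pik3cd (1.37) at the low end.

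Of 13 further myeloid transcription factors, 12 rose at 3 DPI and 7 at 28 DPI (48.3% and 21.1% of all tested genes). Irf5 (4.91) and Irf8 (4.84), interferon regulatory factors of the myeloid lineage, were highest at 3 DPI, and Runx1 (2.97) at 28 DPI. Bcl6 was at 0.45 at 3 DPI. Of 12 further Toll pathway genes, 10 rose at 3 DPI and 6 at 28 DPI, beside the same shares. Ly86 (4.58 and 1.47), a partner of a Toll-like relative, and Tlr8 (4.36 at 3 DPI) were highest, and Irak3, an inhibitor of the pathway, was highest at 28 DPI (1.76). Tlr3 (0.09 and 0.17) and Tlr9 (0.72 and 0.25) were lowest on both days.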

How the data were processed

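RNA of rat TA muscle was sequenced as total RNA libraries. The authors pseudo-aligned reads with Kallisto to the annotation of rat build 6.0, and the file they deposited gives TPM by gene symbol. Its values were taken unchanged. The version of Kallisto is not given in the sources used here. Counts, on which the authors ran their own tests, were not used, and TPM keeps no read depth. The table holds 16182 entries, of which 16181 are complete.

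Samples were grouped by their labels. Of 125 libraries kept, 9 were left unassigned, 8 from rats that ran to 28 DPI, where title and label contradict each other on the muscle, and 1 whose day differs from the other libraries of its rat. The other 116 libraries gave 114 muscles of 78 rats in 31 groups after the TPM of a muscle's libraries was averaged, and dropping the low-complexity libraries removed 2 muscles. Replicates are separate muscles, and in control muscle both legs of a rat.

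Genes with a mean above 1 TPM in at least 1 group were tested (11328) on log2(TPM + 1), a pseudocount of 1, with limma 3.58.1 (R 4.3.3), with an intensity trend and one mean per group (83 residual degrees of freedom). Fold changes are on that scale and understate changes of low genes. Benjamini-Hochberg adjustment ran over all tested genes of a comparison. The code was tested on simulated data with known changes. Same-rat pairing was checked: the deviations of 36 pairs of muscles of one rat from their group means correlated at a mean of 0.072, against -0.0087 for muscles of different rats, and the rat as a random block used statmod 1.5.0. Alternatives were median-of-ratios size factors, a pseudocount of 0.1, all libraries kept, no filter on low values, control muscles averaged per rat, each library as its own sample, non-running groups alone, adjusted p alone, the rat block, the rat number range as a covariate or fitted apart, and 1 muscle left out in turn in groups of 2 to 5 and in larger groups without running (88 of 114 muscles). The number range, the larger groups left out and the comparison of contralateral muscle at 3 DPI with later days were chosen after seeing the data.

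The 45 genes and the other lists were chosen with earlier results of these data known. Every member found is accounted for. Levels by muscle are given for 18 members chosen to represent the roles, the 3 highest and 3 lowest of each comparison could be named, and every called member where at most 8 were called. Of the other lists, the 2 highest and 2 lowest at 3 and 28 DPI could be named. Members named beside a role or as not called lie outside this rule and were named after their values were seen. Promoters were taken from the RefSeq table of build GRCr8, which differs from the build of the TPM table and was matched by symbol. Tables and figures used Python 3.11.15, pandas 2.3.3, numpy 2.4.6, scipy 1.17.1 and matplotlib 3.10.9.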

Additional observations from a re-analysis of the deposited data

Results flagged for a closer look

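In 16 groups of 4 to 10 muscles, 20 of 304 sets of values for the lead genes and the summed level held a muscle beyond Dixon's limit, and chance gives about 1 in 20. Rat 82 (injured, no repair, 28 DPI) stood above the other 3 muscles in the sum of the 42 genes (1221.57 TPM) and in Fcer1g (98.51 TPM), Syk (3.39 TPM), Cd68 (59.44 TPM) and Lyz2 (628.05 TPM), and it was the highest of its group in 41 of 42 genes. Rat 135 (graft, 14 DPI) stood above its group in Csf1r (38.3 TPM), Spi1 (13.3 TPM), Cd68 (54.92 TPM) and Lyz2 (577.1 TPM), and rat 23 (graft, 7 DPI) in Cd68 (289.06 TPM) and Lyz2 (3438.98 TPM).

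The contralateral muscle of rat 127 (graft, 7 DPI) was high in Ptprc (2.51 TPM), Itgam (0.86 TPM) and Adgre1 (2.05 TPM). The right TA of rat 38 was low in Itgam among control muscles (0.04 TPM), and rat 137 was high in Fcer1g without repair at 14 DPI (86.92 TPM). Among non-repaired running rats, rat 98 was low in Csf1r at 3 DPI (184.73 TPM), rat 31 was high in Itgal (16.67 TPM) and Syk (13.07 TPM) at 7 DPI, and rat 134 was high in Fcgr2b at 14 DPI (19.54 TPM).

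All 9 libraries that were left in no group because their labels conflict had a summed level of the 42 genes above the highest control muscle (95.6 TPM). The library titled as contralateral muscle of rat 11, labelled with another day than the other libraries of that rat, was at 278.88 TPM. Of the running rats at 28 DPI, the 4 libraries titled as injured were at 147.14, 117.01, 108.89 and 135.72 TPM and the 4 titled as uninjured at 470.35, 523.69, 590.04 and 813.78 TPM. The labels of these 8 libraries name the other muscle.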

How the results depend on the processing

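For 135 results on single genes, 2200 of 2210 recomputed values were classed as unchanged, 10 as no longer past the threshold (5 with a muscle left out, 5 with size factors) and 0 as reversed. Gained calls, such as those of Lyz2, Cd68 and Fcgr1a for graft at 7 DPI in rats numbered above 100, had no class of their own. The calls of Lyz2 and Fcer1g in contralateral muscle at 7 DPI were lost with all libraries kept and with control muscles averaged per rat. Those losses are not among the 10, so the 135 results do not cover every call named above. With adjusted p alone, members called were 26 at 7 DPI for graft against no repair, 38, 19, 10 and 1 at 3, 7, 14 and 28 DPI for contralateral against control, 1 at 3 DPI for running, and 26 and 25 for contralateral muscle at 3 against 7 and 28 DPI. With a pseudocount of 0.1, contralateral against control gave 41, 23, 22 and 14, and 3 against 7 and 28 DPI gave 8 and 18. With size factors, contralateral against control gave 5 at 7 DPI and 10 at 14 DPI, injured muscle at 14 against 7 DPI gave 18 lower, and 3 against 7 and 28 DPI gave 1 and 2. With all libraries kept, graft against no repair at 7 DPI gave 15, contralateral against control 0 at 7 and 0 at 14 DPI, injured muscle at 14 against 7 DPI 15 lower, and 3 against 7 and 28 DPI 8 and 0. In injured muscle at 7 DPI without running, the libraries this added were 3 without repair and 0 with graft. With control muscles averaged per rat, contralateral against control gave 0 at 7 DPI and 1 at 14 DPI. With the number range as a covariate and adjusted p alone, graft against no repair at 7 DPI gave 28. In rats numbered above 100 alone, that comparison gave 19, and 39 with adjusted p alone. Injured muscle at 7 against 3 DPI gave 20 lower with 7 DPI rats numbered below 100 alone, and at 14 against 7 DPI gave 5 lower with those above 100 alone. With the rat as a replicate block (within-rat correlation 0.026), contralateral against control gave 3 at 7 DPI and 5 at 14 DPI, and no other count of members changed. With 88 of 114 muscles left out in turn (59 of groups of 2 to 5 and, chosen after seeing the data, 29 of larger groups without running), counts ranged from 0 to 4 for graft against no repair at 7 DPI, from 2 to 5, 1 to 7 and 0 to 2 for contralateral against control at 7, 14 and 28 DPI, from 0 to 1 for running at 28 DPI, from 0 to 1 for injured muscle at 28 against 14 DPI, and from 1 to 7 and 2 to 11 for contralateral muscle at 3 against 7 and 28 DPI. The causes were not tested. Read depth is unknown, so counting limits for the genes near 0 TPM in control muscle cannot be given.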

Other observations

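Markers of mast cells, platelets and natural killer cells were also read in non-repaired injured muscle against control muscle. The summed mast cell markers were 4.54 to 5.32 TPM in control muscle and had means of 34.5, 45.5, 42.6 and 27.0 TPM at 3, 7, 14 and 28 DPI, with 4 of 5 tested markers called higher at both 3 and 28 DPI (limma), where 48.3% and 21.1% of all genes were called higher. Of the platelet markers, Pf4, the chemokine of platelet granules, was the 1 tested, and its log2 fold change was 5.72 at 3 DPI and 3.16 at 28 DPI. Pf4 is also transcribed in some macrophages. Natural killer cell markers had their highest mean sum at 7 DPI (14.3 TPM), beside 6.94 TPM at 3 DPI and 1.61 TPM in control muscle, and 1 of 5 was called higher at 3 DPI (48.3% of all genes). No difference between these lists and all genes was tested.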
